A study of Mus musculus with 6 samples.

Results

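The 9 genes described here encode the enzymes that write, copy and remove cytosine methylation in the mouse, together with the isocitrate dehydrogenases that supply a substrate for its removal. They are Dnmt1, Dnmt3a, Dnmt3b, Uhrf1, Tet1, Tet2, Tet3, Idh1 and Idh2. They were chosen by name, and all 9 were found among the 20097 genes listed in the deposited tables. RNA came from c-Kit+ bone marrow cells, the cells sorted by the stem cell factor receptor KIT, among them blood stem cells and early progenitors. Poly-A RNA was sequenced in 3 libraries of genotype WT and 3 of genotype Runx1 KO, a knockout of the gene for the transcription factor RUNX1. Age, sex, the allele and the means of disrupting Runx1 are not given in the labels, nor is it said whether the 3 libraries of a group came from separate animals, so that p-values measure the spread between these libraries, which may be technical.

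DNA methylation in mammals sits mostly on cytosines followed by guanine (CpG). DNMT3A and DNMT3B place it on unmethylated DNA, whereas DNMT1 copies it onto the new strand at replication, guided by UHRF1, which binds the half-methylated sites left behind the fork. The TET enzymes oxidise the methyl group, with iron and alpha-ketoglutarate as cofactors, and so open the way to its removal. IDH1 in the cytosol and IDH2 in mitochondria make alpha-ketoglutarate from isocitrate. In human blood, DNMT3A, TET2, IDH1 and IDH2 are known as genes recurrently mutated in clonal haematopoiesis and myeloid leukaemia, and RUNX1 is mutated in some of the same diseases.

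The libraries held between 23297526 and 26793380 recovered reads, and a member gene had from 531 to 18521 reads in a library. Values are the authors' normalised read counts, that is, reads per gene scaled by 1 size factor per library. Changes are differences in log2(normalised read count + 1), libraries labelled Runx1 KO minus libraries labelled WT, with standard errors (SE) and Benjamini-Hochberg adjusted p-values from limma fitted over 15410 genes. A gene was called when its adjusted p was under 0.05. Runx1 itself was not lower under the label Runx1 KO: its normalised read counts were 3031, 2799 and 3497 under the label WT and 6648, 6720 and 5830 under the label Runx1 KO, a log2 change of 1.04 (SE 0.10, limma adjusted p 0.00163). A count over the whole gene does not tell whether part of its transcript was lost. The groups are therefore named by their labels, and every direction below is drawn from labels that this gene did not check. Kit, the gene of the sorting marker, was well expressed in all 6 libraries, with 7979, 8455 and 8471 normalised reads under the label WT and 11507, 13684 and 12756 under the label Runx1 KO. Kit was also called higher under the label Runx1 KO, with a log2 change of 0.60 (SE 0.07, limma adjusted p 0.00346).

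Of the 9 genes, 2 rose in the libraries labelled Runx1 KO, Dnmt3a and Tet1, and 0 fell (1, Uhrf1, was lower at an unadjusted limma p under 0.05, and DESeq2 called it). The other 7 did not pass the threshold. The share called, 22.2%, was close to the 21.9% of all tested genes that passed, so these genes were called about as often as the background. In the upward direction 10.6% of all genes passed and in the downward direction 11.3%. By the looser measure of groups that do not overlap, 6 of the 9 genes (66.7%) were separated, 5 upwards and 1 downwards, against 43.3% of all tested genes, 21.4% upwards and 21.9% downwards. The median log2 change of the 9 was 0.16, against -0.0042 over all tested genes, and their median absolute change was 0.19, against 0.23. At an unadjusted p under 0.05 limma gave 5 of the 9, against 37.7% of all tested genes.

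**Figure D1:**
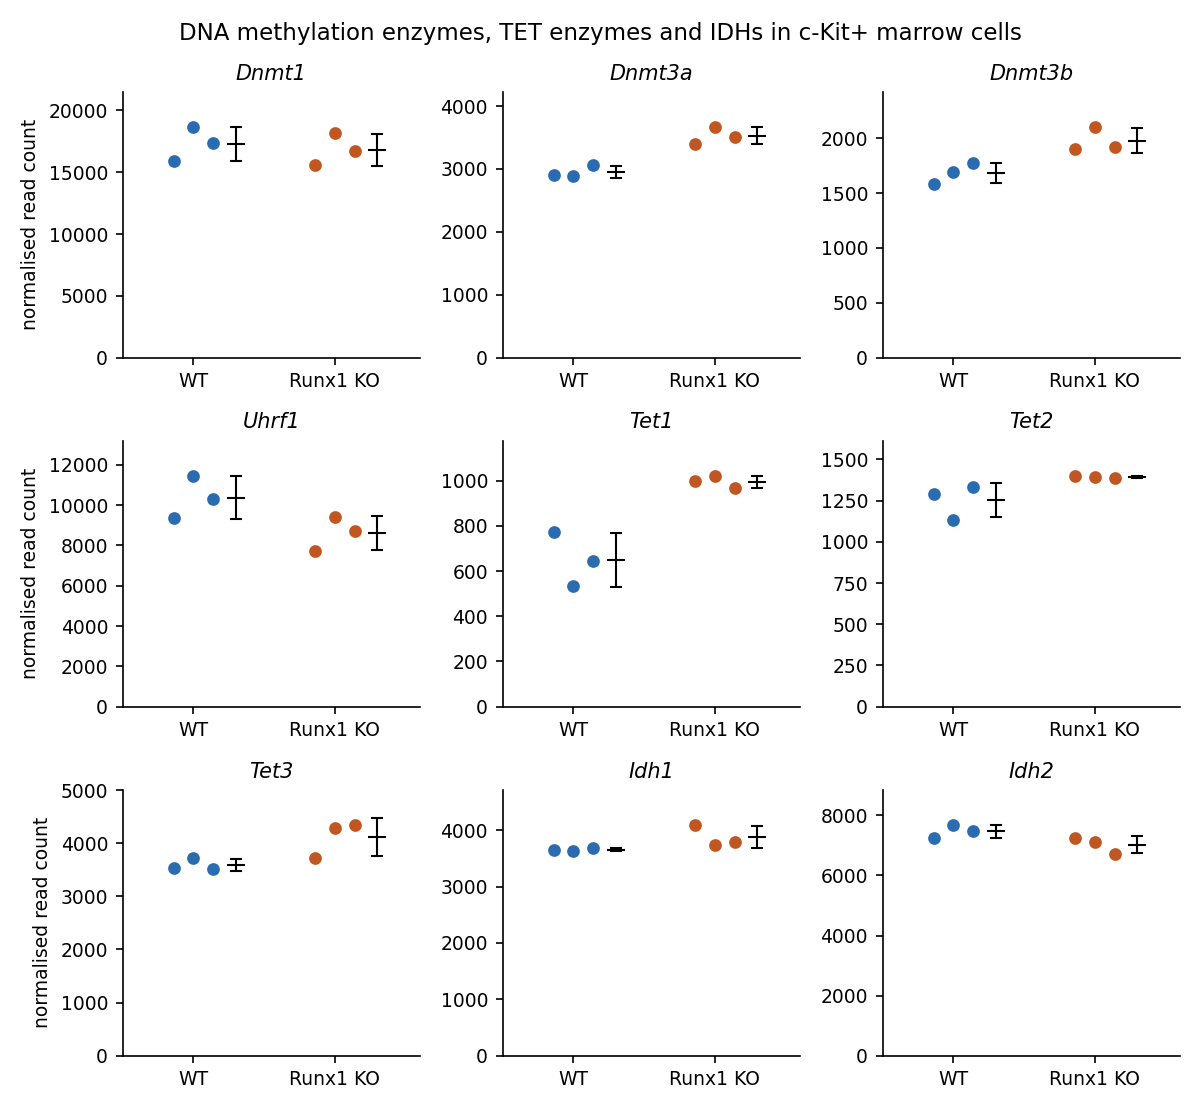
Normalised read count (vertical axis, from 0) of each of the 9 genes in the 3 libraries labelled WT (blue) and the 3 labelled Runx1 KO (orange); black bars give the mean and SD, n = 3. Tet1 and Dnmt3a lie higher in every library labelled Runx1 KO, Dnmt1 spans nearly the same range in both groups, and Uhrf1 overlaps between 9371 and 9407.

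Promoter sequence is shown for both genes that rose and for Uhrf1, because CpG sites are what these enzymes act on and because Uhrf1 alone had a RUNX motif among its upstream bases. Sequences are from RefSeq on GRCm38.p6, 5′ to 3′ on the gene's strand, before the first start listed for the gene there and clear of exons of the gene annotated in GENCODE M21. Dnmt3a is at chr12:3806730-3806979 (plus strand), Tet1 at chr10:62887325-62887412 (minus strand) and Uhrf1 at chr17:56303087-56303320 (plus strand). The stretches of Dnmt3a and Tet1 lie inside these genes as annotated in GENCODE M21, downstream of their outermost starts there. Capitals mark CpG sites in Dnmt3a and Tet1, and the RUNX motif in Uhrf1.
Dnmt3a: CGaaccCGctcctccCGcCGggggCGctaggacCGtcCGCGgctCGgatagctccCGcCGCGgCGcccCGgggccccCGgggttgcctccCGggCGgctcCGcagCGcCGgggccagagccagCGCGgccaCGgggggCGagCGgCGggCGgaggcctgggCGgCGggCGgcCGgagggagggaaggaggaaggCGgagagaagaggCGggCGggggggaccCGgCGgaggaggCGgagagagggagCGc
Tet1: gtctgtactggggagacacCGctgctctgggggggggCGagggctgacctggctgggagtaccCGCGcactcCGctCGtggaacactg
Uhrf1: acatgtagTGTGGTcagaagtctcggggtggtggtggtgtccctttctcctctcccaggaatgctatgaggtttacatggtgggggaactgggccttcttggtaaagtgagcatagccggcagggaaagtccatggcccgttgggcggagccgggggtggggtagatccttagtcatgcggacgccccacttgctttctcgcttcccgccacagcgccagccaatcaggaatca

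The stretch of Dnmt3a held 38 CpG sites in 250 bases and that of Tet1 held 6 in 88. All 9 genes had windows in the RefSeq table, 15 in all, each of 300 bases from 250 before to 50 after a start. A window of the 9 genes held from 2 CpG sites, at the outermost start of Dnmt1, to 57, at Tet2, whereas the median over all 32851 windows was 7. Windows at the later starts of Dnmt1 held 12 and 33. The windows were searched on both strands for the RUNX motifs TGTGGT and TGCGGT, the GATA motif AGATAA and the E2F motif GCGGGAA. A RUNX motif was present in 2 of the 15 windows (13.3%), against 22.4% of all windows. TGTGGT was in the window at the first of 2 listed starts of Uhrf1, its first base 242 bases before that start. TGCGGT was in Idh2, after the start. The E2F motif was in 1 window, the same one of Uhrf1, against 4.6% of all windows, and the GATA motif in 0, against 11.2%. No motif of the RUNX or GATA kind was found in the windows of Dnmt3a or Tet1, which says only that these letters are not there.

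Among the de novo methyltransferases, Dnmt3a (ENSMUSG00000020661; chromosome 12, 3806007 to 3914443, plus strand, protein coding, GENCODE M21 on GRCm38) had 2904, 2885 and 3060 normalised reads under the label WT and 3402, 3672 and 3513 under the label Runx1 KO. Every library labelled Runx1 KO lay above every library labelled WT. The means were 2949 ± 96.1 and 3529 ± 136 (SD, n = 3), a difference of 19.6%. Dnmt3a rose by 0.26 on the log2 scale (SE 0.06, limma adjusted p 0.0208). The rise was small, as 45.6% of tested genes had a larger absolute change. Leaving out WT replicate 1 or 2, or Runx1 KO replicate 2 or 3, ended the call, with limma adjusted p values of 0.0502, 0.0599, 0.0961 and 0.0708 and log2 changes of 0.25, 0.24, 0.23 and 0.26. An antisense gene, Dnmt3aos, shares 133 exon bases with Dnmt3a and had a mean of 1.66 normalised reads.

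Dnmt3b (ENSMUSG00000027478; chromosome 2, 153649450 to 153687730, plus strand) had 1583, 1695 and 1771 normalised reads under the label WT and 1906, 2105 and 1922 under the label Runx1 KO. The groups did not overlap, and the means were 1683 ± 94.5 and 1978 ± 110 (SD, n = 3). Its log2 change of 0.23 (SE 0.07) did not pass in limma (adjusted p 0.0566), although DESeq2 on the recovered reads gave an adjusted p of 0.0364. The estimates for Dnmt3b and Dnmt3a were close, with 95% intervals of 0.06 to 0.40 and 0.12 to 0.39. The ratio of Dnmt3a to Dnmt3b reads within a library, which does not move with the scaling, was 1.83, 1.70 and 1.73 under the label WT and 1.79, 1.74 and 1.83 under the label Runx1 KO. These ratios overlapped between the groups. Dnmt3l, a catalytically inactive relative that stimulates DNMT3A and DNMT3B, was at a low level, with 43.5, 46.4 and 25.9 normalised reads against 23.0, 19.8 and 22.9 (log2 change -0.75, limma adjusted p 0.0965).

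Dnmt1, the maintenance methyltransferase (ENSMUSG00000004099; chromosome 9, 20907209 to 20959888, minus strand), had 15941, 18689 and 17333 normalised reads under the label WT and 15560, 18164 and 16744 under the label Runx1 KO. The groups covered nearly the same range. Its log2 change was -0.04 (SE 0.08, limma adjusted p 0.749), with a 95% interval of -0.24 to 0.16, so that a fall to 0.846-fold or a rise to 1.12-fold was within the error. Uhrf1 (ENSMUSG00000001228; chromosome 17, 56303321 to 56323486, plus strand) had 9371, 11458 and 10282 normalised reads against 7706, 9407 and 8706. Its highest library labelled Runx1 KO passed its lowest library labelled WT by a small margin. The means were 10370 ± 1046 and 8607 ± 855 (SD, n = 3), and the log2 change of -0.27 (SE 0.10) did not pass in limma (adjusted p 0.0962). DESeq2 gave Uhrf1 an adjusted p of 0.0454.

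Dnmt1 and Uhrf1 varied together among libraries of the same label: replicate 1 was lowest and replicate 2 highest for both genes in both groups. The ratio of Dnmt1 to Uhrf1 reads was 1.70, 1.63 and 1.69 under the label WT and 2.02, 1.93 and 1.92 under the label Runx1 KO. These ratios did not overlap, with means of 1.67 ± 0.0368 and 1.96 ± 0.0533 (SD, n = 3), although neither gene passed the test alone. The ratio of Dnmt1 to Dnmt3a reads was 5.49, 6.48 and 5.66 under the label WT and 4.57, 4.95 and 4.77 under the label Runx1 KO, again without overlap. With 3 libraries against 3 an exact permutation test cannot go below 0.1, and none is given for the ratios. How often ratios of other gene pairs separate was not counted. Of single tested genes, 43.3% had groups that did not overlap.

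Several genes of the cell cycle fell. Of 12 genes of mitosis, 7 fell and 0 rose, among them Plk1 (log2 change -0.47) and Aurka (-0.41), kinases of the mitotic spindle. The median change of this list was -0.30, and its summed level ran from 84678 to 95338 normalised reads under the label WT and from 67251 to 82032 under the label Runx1 KO. The count of mitosis genes was 0 without Runx1 KO replicate 2, and 3 without WT replicate 2 or 3 or Runx1 KO replicate 1 or 3, and also 3 with equal library totals. Of 17 genes of DNA replication, 3 fell (17.6%, under the 21.9% of all genes) and 0 rose: Rrm2 (-0.60) and Tyms (-0.32), which supply nucleotides, and Mcm5 (-0.25), a subunit of the replicative helicase. Their summed level ran from 110939 to 130382 under the label WT and from 101586 to 111420 under the label Runx1 KO, so that the groups overlapped. This count was 1 without WT replicate 2, Runx1 KO replicate 2 or Runx1 KO replicate 3, and 5 with DESeq2. In both groups replicate 1 had the lowest of these replication sums and replicate 2 the highest, the same libraries as for Dnmt1 and Uhrf1. The mitosis sums kept this order under the label WT (84678, 95338 and 85415). Under the label Runx1 KO they did not (67251, 79682 and 82032), as replicate 3 was highest. The part of the cell cycle in the Uhrf1 values was not tested.

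**Figure D2:**
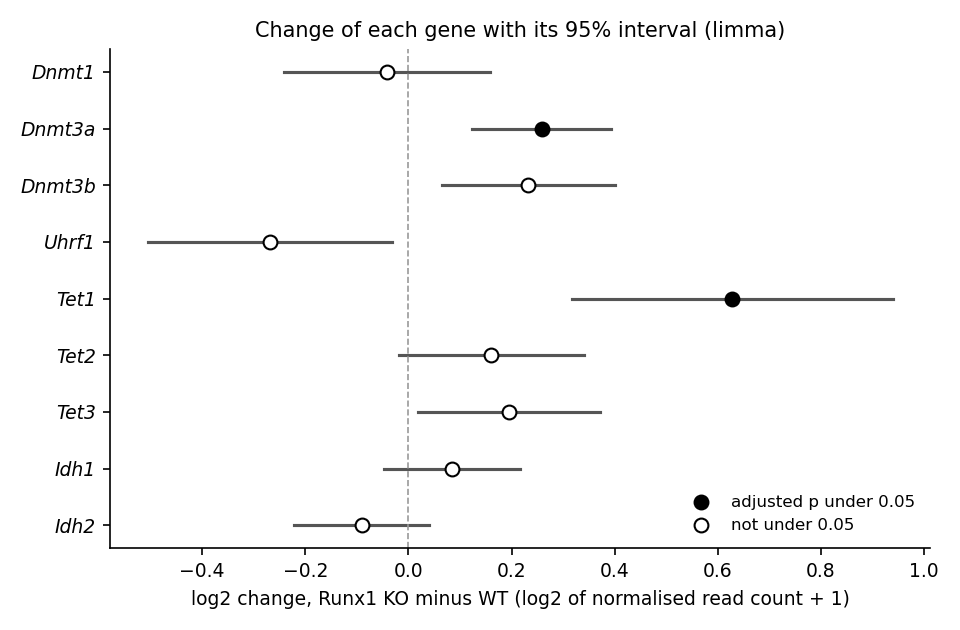
Log2 change (horizontal axis, Runx1 KO minus WT) of each gene with its 95% interval from limma; filled points passed an adjusted p of 0.05. Tet1, at 0.63, and Dnmt3a, at 0.26, are the filled points, and the intervals of Dnmt1, Tet2, Idh1 and Idh2 include 0.

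Tet1 showed the largest change of the 9 genes. It encodes a TET enzyme with a CpG-binding CXXC domain (ENSMUSG00000047146; chromosome 10, 62804570 to 62908996, minus strand). Its normalised read counts were 774, 536 and 644 under the label WT and 997, 1023 and 968 under the label Runx1 KO. The groups were well apart, and the spread under the label WT (651 ± 119, SD, n = 3) was wider than under the label Runx1 KO (996 ± 27.6). Tet1 rose by 0.63 on the log2 scale (SE 0.13, limma adjusted p 0.0179), with a 95% interval of 0.32 to 0.94, and 19.8% of tested genes had a larger absolute change. Without WT replicate 3, Runx1 KO replicate 2 or Runx1 KO replicate 3 the call was lost, at limma adjusted p values of 0.0515, 0.0721 and 0.0529, while the log2 change was 0.63, 0.61 and 0.65.

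Tet2 (ENSMUSG00000040943; chromosome 3, 133463679 to 133545139, minus strand), the TET gene recurrently mutated in human blood disease, had 1289, 1135 and 1330 normalised reads under the label WT and 1402, 1395 and 1390 under the label Runx1 KO. The groups did not overlap, but the log2 change of 0.16 (SE 0.08) did not pass (limma adjusted p 0.17). Its 95% interval, -0.02 to 0.34, leaves out a rise above 1.27-fold. Tet3, which lies on chromosome 6, 83362373 to 83459084, minus strand (ENSMUSG00000034832), had 3538, 3724 and 3506 normalised reads against 3715, 4290 and 4348. The lowest library labelled Runx1 KO, replicate 1, lay within the range of the libraries labelled WT. The log2 change of Tet3 was 0.19 (SE 0.07, limma adjusted p 0.104), and without Runx1 KO replicate 1 it was 0.27 with a limma adjusted p of 0.0239.

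Within a library, reads of Tet1 relative to Tet3 were 0.219, 0.144 and 0.184 under the label WT and 0.268, 0.238 and 0.223 under the label Runx1 KO. The groups did not overlap, though the highest value under the label WT came close to the lowest under the label Runx1 KO. Tet2 relative to Tet3 was 0.364, 0.305 and 0.379 against 0.377, 0.325 and 0.320, and overlapped. Per kilobase of annotated exon, Tet3 made up 64.9% ± 3.24 of the TET reads under the label WT and 62.6% ± 2.16 under the label Runx1 KO (SD, n = 3). The share of Tet1 was 12.7% ± 2.06 and 16.4% ± 1.00, and that of Tet2 22.4% ± 1.59 and 21.1% ± 1.21. The Tet1 shares did not overlap between the groups, and Tet1 stayed below Tet2 in both.

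Neither isocitrate dehydrogenase gene passed the test. Idh1 (ENSMUSG00000025950; chromosome 1, 65158616 to 65186500, minus strand) had 3651, 3631 and 3681 normalised reads under the label WT and 4097, 3745 and 3792 under the label Runx1 KO, a log2 change of 0.08 (SE 0.06, limma adjusted p 0.315). Idh2 (ENSMUSG00000030541; chromosome 7, 80094846 to 80115392, minus strand) had 7257, 7691 and 7472 normalised reads against 7245, 7111 and 6713, a log2 change of -0.09 (SE 0.06, limma adjusted p 0.28). Both genes had groups that did not overlap, Idh2 by a small margin, in opposite directions and with 95% intervals of -0.05 to 0.22 and -0.22 to 0.04. The ratio of Idh1 to Idh2 was 0.503, 0.472 and 0.493 under the label WT and 0.566, 0.527 and 0.565 under the label Runx1 KO. Every library labelled Runx1 KO was above every library labelled WT in this ratio, with means of 0.489 ± 0.0158 and 0.552 ± 0.0222 (SD, n = 3).

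**Figure D3:**
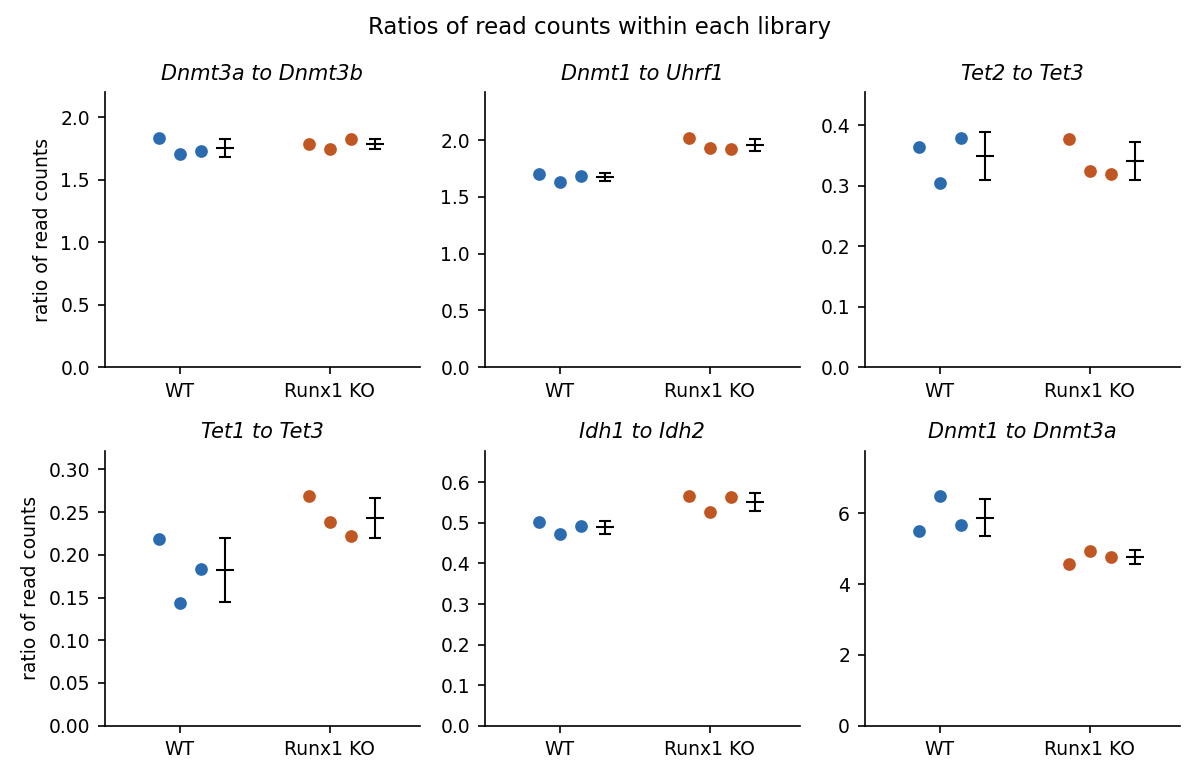
Ratios of read counts of 2 genes within each library (vertical axes, from 0), for 6 pairs, with libraries labelled WT in blue and Runx1 KO in orange; black bars give the mean and SD, n = 3. Dnmt1 to Uhrf1, Tet1 to Tet3, Idh1 to Idh2 and Dnmt1 to Dnmt3a do not overlap between the groups, while Dnmt3a to Dnmt3b and Tet2 to Tet3 do. Idh1 to Idh2 had to separate, as each of these genes was separated alone, in opposite directions. The share of other gene pairs that separate was not counted.

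Levels of different genes were compared as RPKM, which divides reads by the length of annotated exons and by the library total, in the libraries labelled WT. Idh2 was highest, at 112 ± 5.12 (SD, n = 3), above Uhrf1 at 94.1 ± 10.2 and Dnmt1 at 90.8 ± 8.17, whose libraries overlapped. Idh1 followed at 51.0 ± 1.83. The others were far lower: Dnmt3b at 12.8 ± 1.08, Tet3 at 8.31 ± 0.281, Dnmt3a at 6.85 ± 0.427, Tet2 at 2.87 ± 0.288 and Tet1 at 1.63 ± 0.283. In these neighbouring pairs the libraries labelled WT did not overlap. The order of Dnmt1 and Uhrf1 depends on the length used: with the longest annotated transcript in place of all exons, Dnmt1 came to 114 and Uhrf1 to 112. By the same measure of length Dnmt3a came to 11.8 and Tet2 to 5.27, over 1.5 times the values above. By RPKM, 97.7% of tested genes were lower than Idh2 and 30.5% lower than Tet1.

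By the root mean square difference of centred log2 values over the 6 libraries, among 11200 tested genes with a mean of at least 100 normalised reads, the gene most like Dnmt3a was Zbtb38 (0.012). ZBTB38 is a zinc finger protein that binds methylated CpG. Cipc (0.020) and Rabgap1 (0.023) came next. Those most like Tet1 were Basp1 (0.062), Foxn3 (0.067) and Trim34a (0.068). This likeness is a description over libraries that differ by label, and many genes moved with the label.

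Around the 9 genes, 7 lists of pathway genes held 99 genes, of which 92 were tested. Limma called 14 of them (15.2%, against 21.9% of all tested genes), 12 higher and 2 lower, and the median log2 change was 0.01. Scaling to equal library totals raised this count to 26, DESeq2 gave 24, and leaving out WT replicate 2, Runx1 KO replicate 2 or Runx1 KO replicate 3 lowered it to 6, 2 and 3.

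The pathway list of CpG methylation readers and related genes had the largest share of calls, 5 of 10, of which 4 were higher and 1 lower. Its median log2 change was 0.22. Those that rose included Zbtb38 (0.26), Mbd4 (0.37), a glycosylase that removes mismatched thymine at CpG, and Mbd6 (0.23). Mbd2, a methyl-CpG-binding repressor, fell by 0.31 on the log2 scale, from 3972 ± 338 to 3197 ± 149 normalised reads (SD, n = 3, limma adjusted p 0.0314). The 5 genes of this list that did not pass included Mbd1 and Mbd3. The count of this list fell to 2, 1 and 2 without WT replicates 1, 2 and 3, to 3 without Runx1 KO replicate 1, and to 0 without Runx1 KO replicate 2 or 3. It was 3 with no filter on low values.

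Partners of the maintenance and de novo enzymes were rarely called. Of 9 maintenance partners, 1 rose, Cdca7l (log2 change 0.26, limma adjusted p 0.0388), a relative of Cdca7, which works with the chromatin remodeller HELLS. Hells (-0.23, limma adjusted p 0.131), Pcna (-0.19, limma adjusted p 0.149) and Usp7 (-0.08, limma adjusted p 0.539) did not pass. Cdca7l lost its call on leaving out any library but Runx1 KO replicate 1, with limma adjusted p values up to 0.137, and with equal library totals the count of this list was 3. Of 6 tested genes of de novo methylation and related repression, 0 were called by limma and by edgeR and 1 by DESeq2, while 3 had an unadjusted limma p under 0.05 (37.7% of all tested genes did): Dnmt3l, Trdmt1 (log2 change -0.21), an RNA methyltransferase of the DNMT family, and Nsd1 (0.25), a histone methyltransferase gene. The limma count of this list was 2 with equal library totals, 2 without Runx1 KO replicate 1 and 1 without WT replicate 3.

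Of 14 tested partners of the TET enzymes and genes of base excision repair, 1 rose and 1 fell. Smug1, a uracil glycosylase that also acts on an oxidised thymine-like base, had 158, 175 and 196 normalised reads under the label WT and 248, 272 and 298 under the label Runx1 KO (log2 change 0.63, limma adjusted p 0.0186). Gadd45b, a stress-induced gene linked to demethylation, fell by 0.43 on the log2 scale (limma adjusted p 0.0428). Tdg, which excises the oxidised bases that TET enzymes make, had a log2 change of -0.15 (limma adjusted p 0.0824), and Ogt, which binds TET proteins, one of 0.42 (limma adjusted p 0.0826). This count was 5 with DESeq2, 1 without WT replicate 1 and 0 without WT replicate 2, Runx1 KO replicate 2 or Runx1 KO replicate 3.

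In the list of alpha-ketoglutarate and the tricarboxylic acid cycle, 2 of 23 genes rose and 0 fell (8.7% called, against 21.9% of all tested genes). Yet changes were positive for only 4 of the 23 and the median was -0.11. The summed level of the list was lower under the label Runx1 KO, at 107704 to 109794 normalised reads against 113766 to 123586 under the label WT. D2hgdh, whose enzyme turns D-2-hydroxyglutarate back into alpha-ketoglutarate, had 530, 469 and 549 normalised reads under the label WT and 794, 813 and 866 under the label Runx1 KO. It rose by 0.68 on the log2 scale (SE 0.09, limma adjusted p 0.00407), and it was called whichever of the 6 libraries was left out. Suclg2, a subunit of succinyl-CoA ligase, rose by 0.23 (limma adjusted p 0.0266). It lost its call without WT replicate 1 or 3 or Runx1 KO replicate 2 or 3, with limma adjusted p values up to 0.116, and the count of the list was 1 without WT replicate 3, Runx1 KO replicate 2 or Runx1 KO replicate 3. With DESeq2 that count was 4.

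Of 12 tested genes of the methyl donor pathway, 1 was called by limma, and the median log2 change was 0.10. The count was 4 with equal library totals, 2 with DESeq2, 2 without WT replicate 1 and 3 without Runx1 KO replicate 1. Mat2a, which makes the methyl donor S-adenosylmethionine, had a log2 change of 0.16 (limma adjusted p 0.32) and Ahcy, which clears its product, one of -0.06 (limma adjusted p 0.766). Among 18 other alpha-ketoglutarate-dependent dioxygenases that act on chromatin or nucleic acids, 3 rose and 0 fell (16.7% called, against 21.9% of all tested genes). They were Fto, an RNA demethylase (0.33, limma adjusted p 0.00906), and the histone demethylase genes Kdm3a (0.32, limma adjusted p 0.0437) and Kdm2b (0.26, limma adjusted p 0.0316). Changes were positive for 13 of the 18, but the largest in size were negative and did not pass. These were Kdm7a (-0.81, limma adjusted p 0.0656) and Kdm6b (-0.57, limma adjusted p 0.0632), both with groups that did not overlap. Kdm7a had 4830 normalised reads in WT replicate 1, against 2437 and 2483 in WT replicates 2 and 3. The count was 0 without Runx1 KO replicate 2, 1 without Runx1 KO replicate 3 and 5 without WT replicate 1, and it was 6 with DESeq2 and 6 with equal library totals. Kdm3a lost its call on leaving out any library but WT replicate 1, and Kdm2b on leaving out WT replicate 1 or 3 or Runx1 KO replicate 2 or 3.

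**Figure D4:**
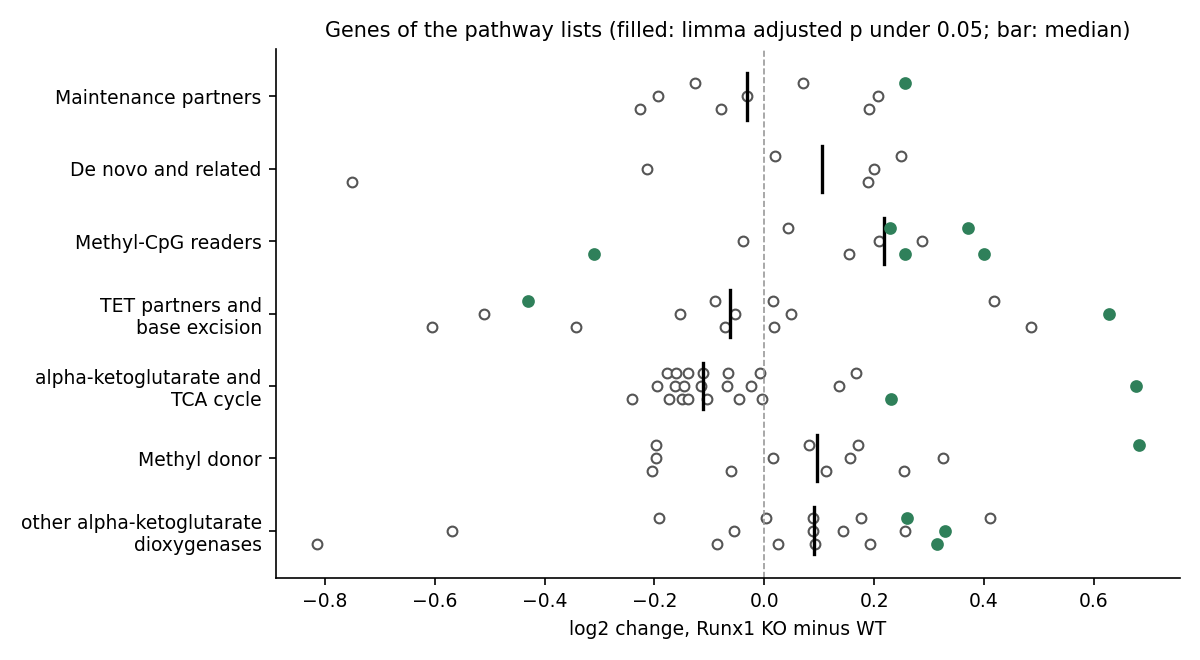
Log2 change (horizontal axis, Runx1 KO minus WT) of the tested genes of 7 pathway lists; filled points passed a limma adjusted p of 0.05, and black bars mark the median of each list. The list of methyl-CpG readers and related genes has a median of 0.22 and 5 filled points. The tricarboxylic acid cycle list lies mostly just below 0, and D2hgdh lies at 0.68.

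Markers of several cell types differed between the labels in the same cells, and in bulk RNA fewer cells of a type and less RNA per cell cannot be told apart. Of 12 stem and multipotent genes, 7 rose and 0 fell, led by Mycn (1.31) and Hlf (1.04), and their summed level ran from 17461 to 22268 normalised reads under the label WT and from 25675 to 30850 under the label Runx1 KO. Of 11 neutrophil granule genes, 8 fell and 0 rose, led by Ngp (-2.64) and Ltf (-2.49), with sums of 313124 to 396290 against 158272 to 217808. The fall was uneven: Elane (-0.35) and Prtn3 (-0.41) were called with much smaller changes. Mpo (-0.14, limma adjusted p 0.233), Ctsg (-0.05, limma adjusted p 0.629) and Mmp8 (-1.55, limma adjusted p 0.2) did not pass. Of 9 B-lymphoid genes, 6 fell, led by Ms4a1 (-5.97) and Pax5 (-5.35), with sums of 7081 to 28515 against 1139 to 3073. Of 10 erythroid genes, 6 fell, led by Alas2 (-3.01) and Hbb-bt (-2.68), with sums of 19055 to 32422 against 12581 to 17804. Those that fell were 4 globin genes, Slc4a1 and Alas2, whereas Klf1 (0.74, limma adjusted p 0.0816), an erythroid transcription factor gene, and Epor (0.68, limma adjusted p 0.107), the erythropoietin receptor gene, had positive changes that did not pass.

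Shorter lists also held calls. Of 6 mast cell and basophil genes, 4 fell, led by Prss34 (-9.26) and Fcer1a (-6.04), both at 5.23 or fewer normalised reads in each library labelled Runx1 KO, where the fitted size depends on the pseudocount, and 1, Gata2 (0.82), which is also on the stem list, rose, with sums of 8695 to 10927 against 6383 to 8424. Of 6 monocyte and macrophage genes, 3 fell, led by Ly6c2 (-1.16) and Cd68 (-0.66), with sums of 38460 to 45578 against 23630 to 34996. Of 5 tested megakaryocyte genes, 3 rose, led by Gp9 (0.87) and Itga2b (0.76), with sums of 2872 to 3455 against 3455 to 5573 that touched at the edge. Pf4, a platelet chemokine gene on the same list, had a change of -0.89 (limma adjusted p 0.0782) with groups that did not overlap. Of 6 T-lymphoid genes, 1 fell, Il7r (-2.15), with sums of 610 to 1515 against 176 to 789.

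Without Runx1 KO replicate 2 the number of genes called fell to 4 in the stem list, 4 in the neutrophil list, 2 in the B-lymphoid list and 1 in the megakaryocyte list. The B-lymphoid count was 3 without Runx1 KO replicate 3, and the megakaryocyte count was 1 without WT replicate 1 or 2. The monocyte count was 6 without Runx1 KO replicate 1. The T-lymphoid count was 5 without that library and 0 without WT replicate 1 or 3 or Runx1 KO replicate 2 or 3. Under the label Runx1 KO, replicate 1 stood apart, with the highest sums of neutrophil granule genes (217808, against 167064 and 158272) and of B-lymphoid genes (3073, against 1145 and 1139). It is also the library in which Tet3 lay within the range of the libraries labelled WT. Without it the log2 changes of Dnmt3a and Tet1 were 0.28 and 0.63, with limma adjusted p values of 0.0228 and 0.0343. Under the label WT, replicate 1 also stood apart. It had the highest sums of B-lymphoid genes (28515, against 7081 and 11544) and of T-lymphoid genes (1515, against 610 and 951). Tet1 was highest of the libraries labelled WT there, at 774 normalised reads. The part of these cell types in the values of Dnmt3a, Tet1 and the other genes was not tested.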

How the data were processed

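The deposited values are a signal per gene and library; per the submitters' processing notes, HISAT2, HTSeq 0.9.1, mm10 and GRCm38 were used, while annotation, strand setting and normalisation are not given in the sources used here. Every value in the 6 deposited files (100%) was a whole multiple of that file's lowest value above 0, to within 0.001, so the authors' signal was taken as reads per gene scaled by 1 factor per library, and reads were recovered from it. Genes under a total of 10 reads are not listed. Symbols matched 20077 of 20097 identifiers.

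Limma 3.58.1 (lmFit, eBayes with a mean trend, group as the only term, two-sided) was fitted to log2(value + 1) of the 15410 genes passing filterByExpr (minimum count 10, minimum total 15). Alternatives were edgeR 4.0.16 and DESeq2 1.42.0 on recovered reads, other scalings, pseudocounts and filters, a replicate block, and leaving out each library. Only limma, edgeR, DESeq2 and limma with the replicate block were tested on simulated data, and no outcome of that test is given here. The other scalings, pseudocounts and filters, edgeR with the replicate block and the fits that left out a library were not tested in this way. Scaling to equal library totals made 63.5% of calls higher, against 48.4%.

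The genes and lists were chosen with earlier results of these data known. All 9 genes are named; of each pathway list, those called, except some not reported here; of each marker list, counts, sums and up to 2 leading genes in each direction; and the 3 genes most like each called gene. Genes named beyond that rule, called or not, were picked after their values were seen. Positions come from GENCODE M21 on GRCm38.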

Additional observations from a re-analysis of the deposited data

How the results depend on the processing

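The 2 calls among the 9 genes became 4 with scaling to equal library totals (Dnmt3b and Tet3 added) and 4 with DESeq2 (Dnmt3b and Uhrf1 added), and ran from 0 to 3 when a library was left out. Over all genes limma called 3370, from 1349 to 3551 with a library left out. The 14 calls of the pathway lists became 26 with equal library totals, 24 with DESeq2, and from 2 to 19 with a library left out. Dnmt1, at -0.04, was 0.0404 with equal library totals. That scaling moves all genes of a library alike, and the median log2 change over all tested genes went from -0.0042 to 0.078. With a library left out Dnmt1 ran from -0.10 to 0.014 (0.014 without WT replicate 2, 0.013 without Runx1 KO replicate 1), and the cause was not tested. In the 10 settings that kept all libraries, Dnmt3a and Tet1 kept their calls, with highest adjusted p values of 0.0273 and 0.0205.

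Same-numbered libraries deviated from their group means with correlations of 0.287, 0.129 and -0.0104, so the numbers were not taken to pair them, and not every library correlated best with its own number. With the replicate block limma called 3843 genes, 3 of the 9 genes (Uhrf1 added, adjusted p 0.0141) and 21 pathway genes; edgeR with the replicate block called 3685, 3 and 19. With 3 libraries a group, the changes were known only to within the 95% intervals given. Those of Dnmt1, Tet2, Idh1 and Idh2 included 0.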
